A study of Homo sapiens with 6 samples.

Results

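The nuclear pore and nuclear transport receptor genes were followed in HT29 cells, an established human colorectal adenocarcinoma line, in which FITM2, a gene for lipid droplet formation, was knocked down. The members are all genes that the deposited count table calls protein-coding and whose symbol begins with NUP and a digit, KPNA, KPNB, TNPO, IPO and a digit, or XPO. This rule found 46 of the table's 58978 genes, 22 nucleoporins and 24 transport receptors. The rule used no measured value, but the members were chosen with earlier results of these data known. The groups were cells with a hairpin against FITM2 (shFITM2, genotype given as FITM2 knockdown, 3 libraries) and cells with a control hairpin (shCTRL, genotype given as WT, 3 libraries). Both were labelled untreated and grown in the same serum-containing McCoy's 5A medium. The labels do not say how many hairpins or clones were used or whether replicates were separate cultures, so the p-values rest on differences among 6 libraries that could be technical repeats.

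As background, the nuclear pore is a ring-shaped channel through the nuclear envelope. Scaffold nucleoporins build its outer (Y complex) and inner rings, and nucleoporins with phenylalanine-glycine repeats fill the channel and bind the passing carriers. The carriers are mostly proteins of the importin beta family. Importins load cargo in the cytoplasm and release it in the nucleus when they bind the GTPase RAN in its GTP form, whereas exportins carry cargo out together with RAN-GTP. Importin alpha proteins are adaptors that link cargo with a classical nuclear localization signal to importin beta 1, the product of KPNB1.

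The libraries held 16964075 to 18263911 counts in shFITM2 and 17176487 to 18855731 in shCTRL. FITM2 itself had 4.83, 5.98 and 4.95 CPM in shFITM2, against 13.2, 10.5 and 10.4 CPM in shCTRL, without overlap, where CPM is the count scaled to a common library size with TMM factors. Fold changes of all genes followed the GC content of their transcripts (Spearman correlation across 14635 genes 0.744), and the slope of a library's log2 deviation from the mean of all libraries on GC content, per 10 percentage points, was 0.179 to 0.261 in the shFITM2 libraries and −0.335 to −0.0649 in the shCTRL libraries, with shCTRL replicate 3 nearest to shFITM2. Each result is therefore given from a fit with group as the sole term (the group fit) and from a fit in which this trend entered as an offset (the GC offset). FITM2's log2 fold change, always shFITM2 minus shCTRL, was −1.12 (SE 0.157, edgeR adjusted p = 0.000242) in the group fit and −1.10 (SE 0.151, adjusted p = 6.48e-05) after the offset, and an exact two-sided permutation test gave p = 0.1, the smallest possible with 3 against 3 libraries. The trend's part in any other single result was not tested. Of 10 colon epithelial markers, 9 had a mean of at least 1 CPM, and the markers sum to 13241 to 13972 CPM in shFITM2 and 9742 to 11739 CPM in shCTRL. Most of this sum was KRT8 (mean 8384 CPM in shFITM2 and 6142 CPM in shCTRL) and KRT18 (mean 3439 CPM in shFITM2 and 2719 CPM in shCTRL). By their means EPCAM (549 CPM in shFITM2 and 634 CPM in shCTRL) and CDH17 (6.54 CPM in shFITM2 and 7.87 CPM in shCTRL) were lower in shFITM2. So were CDX1 (0.452 CPM in shFITM2 and 0.841 CPM in shCTRL) and, slightly, CDH1 (347 CPM in shFITM2 and 349 CPM in shCTRL), and the other markers were higher. CDX1 and CDX2, transcription factors of the intestine, did not pass 1.96 CPM in any library. Of 12 markers of other cell types, LYZ held nearly all the summed 880.0 to 917 CPM in shFITM2 and 768 to 895 CPM in shCTRL, PDGFRB and COL1A2 were at 0 in all libraries, and PTPRC and CD3E had at most 3 reads in any. In bulk RNA, fewer cells expressing a gene and less RNA per cell cannot be told apart.

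Messenger RNAs of the members were mostly lower in shFITM2 cells. Of the 46 members, 45 passed the filter on low counts and were tested. In the group fit 34 fell, 1 rose (TNPO2) and 10 did not pass the test at an adjusted p under 0.05, where 24.5% of the 14809 tested genes were called lower and 24.2% higher. With the GC offset 31 fell, none rose and 14 did not pass, where 17.4% of 14635 genes were called lower and 11.8% higher, 29.2% in either direction. In the group fit 48.7% of genes were called in either direction. In both fits 26 members fell, where 10.0% of genes did. The members' median log2 fold change was −0.40 in the group fit and −0.26 with the GC offset, and the medians of all tested genes were −0.00020 and −0.027. No member changed by as much as 2-fold: the group fit ran from −0.80 (NUP43) to 0.32 (TNPO2). Without shCTRL replicate 3, the library that stood apart, 36 members fell and 2 rose (TNPO2 and NUP62) in the group fit, and 33 fell with the offset. The counts by role below stand beside the same shares of all genes: 24.5% lower in the group fit, 17.4% with the GC offset and 10.0% in both. Among genes under 42% GC, 61.3% were called lower in the group fit. No role was tested as a set. Where a pair of values follows a gene's name below, they are its log2 fold changes in the group fit and with the GC offset, in that order. Gene positions are on GRCh38.

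Summed over the 46 members, the level was 6106, 6230.0 and 6363 CPM in the shFITM2 libraries, against 8523, 8702 and 8016 CPM in the shCTRL libraries. The 22 nucleoporins sum to 2105, 2157 and 2203 CPM in the shFITM2 libraries, against 2734, 2758 and 2731 CPM in the shCTRL libraries, and the 24 transport receptors to 4001, 4073 and 4159.7 CPM in the shFITM2 libraries, against 5789, 5944 and 5285 CPM in the shCTRL libraries. In each sum every shFITM2 library lay below every shCTRL library. Gene by gene this was so for 35 of the 45 tested members, where 29.9% of all tested genes had shFITM2 wholly below shCTRL, and TNPO2 alone had shFITM2 wholly above, as 29.1% of genes did. On CPM corrected by the GC offset it was so for 33 members, against 24.9% of genes. The member that was not tested, NUP210L, a testis-associated relative of the membrane nucleoporin NUP210, had 1, 2 and 3 reads in the shFITM2 libraries and 5, 2 and 3 reads in the shCTRL libraries.

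**Figure D1:**
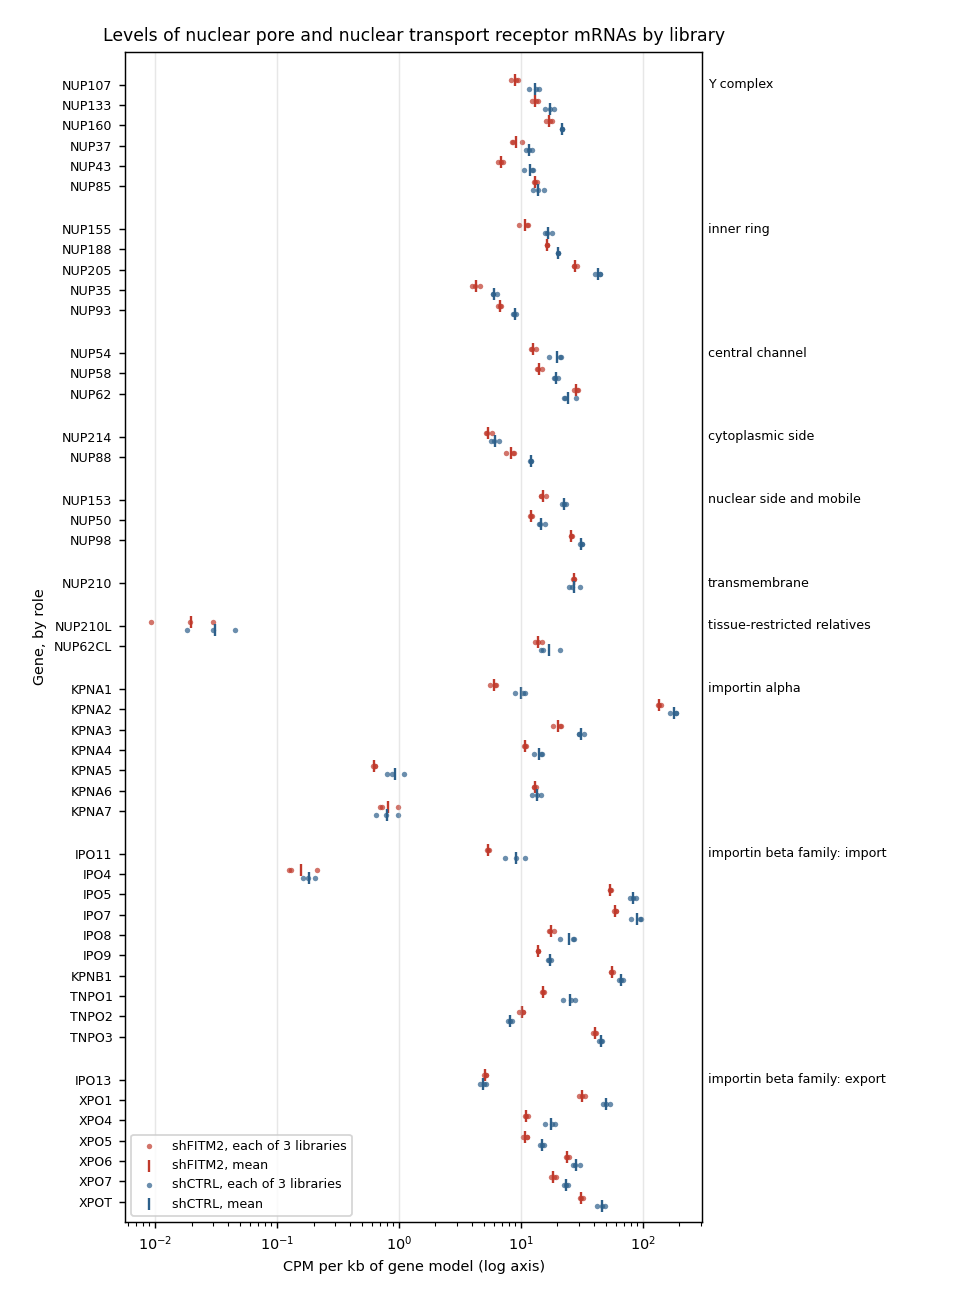
Level of each of the 46 genes in CPM per kilobase of gene model (log axis), by role, with every library as a point and group means as vertical marks, shFITM2 in red above shCTRL in blue. KPNA2 is the highest at 137 ± 4.92 in shFITM2 and 181 ± 11.9 in shCTRL (SD), and most red points lie left of the blue ones, TNPO2 being the opposite.

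Per length of gene model, levels ranged widely among members. KPNA2, an importin alpha, was highest, at 137 ± 4.92 in shFITM2 and 181 ± 11.9 in shCTRL (CPM per kb with SD, n = 3 each). The importins IPO7 (59.5 ± 1.27 in shFITM2 and 90.6 ± 9.55 in shCTRL), KPNB1 (55.7 ± 0.907 in shFITM2 and 66.7 ± 2.27 in shCTRL) and IPO5 (54.2 ± 0.532 in shFITM2 and 83.5 ± 5.01 in shCTRL) followed. Their order was not the same in the groups: IPO7, KPNB1, IPO5 in shFITM2, and IPO7, IPO5, KPNB1 in shCTRL. KPNB1 and IPO5 in shFITM2 differed by less than 2 SD of KPNB1 but by more than 2 SD of IPO5. IPO7 and IPO5 in shCTRL differed by less than 2 SD of either. The highest nucleoporins in shFITM2 were NUP62 (28.5 ± 0.955 in shFITM2 and 24.7 ± 3.09 in shCTRL), NUP205 (27.9 ± 0.901 in shFITM2 and 43.3 ± 2.08 in shCTRL), NUP210 (27.2 ± 0.117 in shFITM2 and 27.3 ± 2.88 in shCTRL) and NUP98 (26.1 ± 0.386 in shFITM2 and 31.5 ± 0.543 in shCTRL). In shFITM2, NUP62 and NUP205 differed by less than the SD of either. In shCTRL NUP205 lay above the other 3. KPNA5, KPNA7, IPO4 and NUP210L were below 1 CPM per kb in both groups. IPO4, an importin of histones and ribosomal proteins, had only 11 to 19 reads per library. It shares 3470 exonic bases with AL136295.4 on the same strand, and how reads falling on both were counted is not given in the sources used here, so its level is uncertain.

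The Y complex forms the outer rings of the pore, and 5 of its 6 members here fell in the group fit, 4 with the GC offset and 3 in both. NUP43, a small propeller-shaped subunit (ENSG00000120253, chromosome 6, 149724315 to 149749665, minus strand), had 28.9, 30.7 and 31.8 CPM in shFITM2, against 56.4, 54.8 and 47.3 CPM in shCTRL. All shFITM2 values lay below all shCTRL values. Its log2 fold change was −0.80 (SE 0.0932, edgeR adjusted p = 9.74e-05) in the group fit and −0.50 (SE 0.0720, adjusted p = 0.000106) after the offset, the largest fall of all members in the group fit. NUP43 overlaps PCMT1 on the opposite strand over 223 exonic bases, and PCMT1 holds more reads (155% of those of NUP43). NUP107, a core scaffold subunit, had 69.6, 75.6 and 79.0 CPM in shFITM2, against 117, 112 and 97.9 CPM in shCTRL, again without overlap. Its log2 fold change was −0.55 (SE 0.0859, edgeR adjusted p = 0.000455) in the group fit and −0.20 (SE 0.0576, adjusted p = 0.0156) after the offset, but leaving out shFITM2 replicate 1 or 2, or shCTRL replicate 1, ended the call after the offset (edgeR adjusted p up to 0.0996). The scaffold subunit NUP133 had −0.39 and −0.16 and fell in both fits, but with the offset its call held only without shCTRL replicate 3 among the 6 fits that leave out 1 library. NUP160 (−0.34 and −0.11) and NUP37 (−0.37 and 0.036) fell in the group fit alone. NUP85 (−0.085 and −0.21) fell with the offset alone (adjusted p = 0.0252, edgeR), a call lost without shCTRL replicate 1 or any 1 of the shFITM2 libraries (adjusted p up to 0.118).

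Promoter windows were read for 40 members from RefSeq (GRCh38.p14), 250 bases before to 50 after the annotated start, and searched on both strands for 7 short motifs. Where a gene had several windows, that with the lowest coordinate was kept, which for a minus-strand gene is the most downstream. The members without a window were NUP43, KPNA4, KPNA5, KPNA7, KPNB1 and XPO7. The RefSeq start need not be that of the gene position in the count table, and for the 4 genes whose windows are shown it lies inside the count table's gene, farthest for TNPO2 and XPO1. The ETS motif CCGGAAG was in 32.5% of them (13 of 40) and in 10.6% of all 27305 windows, which include those of non-coding genes. The 10-letter motif of NRF1, spelled in the NUP107 window below, was in 7.50% and 1.31%, a 10-letter motif of YY1 in 7.50% and 1.29%, the E-box CACGTG in 15% and 7.28%, CCAAT in 45% and 35.6%, the GC box GGGCGG in 52.5% and 43.8%, and TATAAA in 5.00% and 12.1%. The median GC content of the windows was 63.2% for members and 58% for all. A match is a description of letters, and binding was not measured. The NUP107 window is shown because it holds the NRF1 motif once, the ETS motif on the reverse strand at 2 places and CCAAT on the reverse strand once, all in capitals and none overlapping.
NUP107 promoter, chr12:68686728-68687027, plus strand: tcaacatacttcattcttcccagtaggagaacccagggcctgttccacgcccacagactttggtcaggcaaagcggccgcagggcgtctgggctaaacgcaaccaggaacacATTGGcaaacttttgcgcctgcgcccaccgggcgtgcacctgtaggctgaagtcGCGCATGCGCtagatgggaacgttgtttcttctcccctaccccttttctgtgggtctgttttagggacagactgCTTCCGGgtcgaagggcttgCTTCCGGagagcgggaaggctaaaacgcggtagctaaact

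All 5 members of the inner ring, which anchors the channel to the membrane, fell in the group fit, and 4 of them with the GC offset. NUP205, a large curved scaffold protein (ENSG00000155561, chromosome 7, 135557919 to 135648757, plus strand), had 207, 210.5 and 220.3 CPM in shFITM2, against 339, 339.6 and 312 CPM in shCTRL. The groups did not overlap. Its log2 fold change was −0.63 (SE 0.0651, edgeR adjusted p = 5.61e-05) in the group fit and −0.44 (SE 0.0428, adjusted p = 2.97e-06) after the offset. NUP155, which anchors the ring near the membrane, had 89.5, 107 and 104 CPM in shFITM2, against 151, 168 and 145 CPM in shCTRL, also without overlap, and a log2 fold change of −0.63 (SE 0.0863, edgeR adjusted p = 0.000220) in the group fit and −0.33 (SE 0.0597, adjusted p = 0.000701) after the offset. NUP188, a structural relative of NUP205, had −0.31 and −0.49, with a call in both fits and the larger size with the offset. It overlaps SH3GLB2 on the opposite strand over 61 exonic bases, which has 76.5% as many reads. NUP93, the linker of the ring, had −0.41 and −0.32 and fell in both fits, and NUP35 had −0.51 and −0.15 and fell in the group fit alone.

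Among the 3 members of the central channel, which line the passage with phenylalanine-glycine repeats, NUP54 fell in both fits, NUP58 in the group fit alone and NUP62 with the offset alone. NUP54 had 49.4, 50.7 and 54.3 CPM in shFITM2, against 86.4, 84.8 and 69.0 CPM in shCTRL, without overlap, and a log2 fold change of −0.64 (SE 0.0952, edgeR adjusted p = 0.000335) in the group fit and −0.27 (SE 0.0641, adjusted p = 0.00512) after the offset. For NUP58 the values were 142, 145 and 155 CPM in shFITM2, against 196, 211 and 199.8 CPM in shCTRL, without overlap, but its change on the log2 scale, −0.45 in the group fit (edgeR adjusted p = 0.000318), was 0.0088 after the offset (adjusted p = 0.925). NUP62, the partner of both, turned its sign. It had 174, 176 and 165 CPM in shFITM2, against 136, 139.6 and 169.9 CPM in shCTRL, with shCTRL replicate 3 inside the shFITM2 range, and its log2 fold change was 0.21 in the group fit (adjusted p = 0.0641, edgeR) and −0.25 with the offset (adjusted p = 0.00121). NUP62 has a transcript GC content of 58.4%, NUP54 of 39.8% and NUP58 of 36.4%. NUP62 also overlaps ATF5 on the opposite strand over 626 exonic bases, and ATF5 has 27.0% as many reads.

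On the cytoplasmic side of the pore, NUP88 had 40.3, 45.6 and 46.2 CPM in shFITM2, against 63.2, 63.9 and 64.9 CPM in shCTRL. The groups did not overlap, and its log2 fold change was −0.54 (SE 0.0813, edgeR adjusted p = 0.000359) in the group fit and −0.48 (SE 0.0687, adjusted p = 9.47e-05) after the offset. NUP88 overlaps RABEP1 and RPAIN on the opposite strand, which have 82.2% and 27.3% as many reads. Its partner NUP214, which carries many phenylalanine-glycine repeats, had 68.6, 75.7 and 68.1 CPM in shFITM2, against 79.6, 75.1 and 86.6 CPM in shCTRL, with overlap, and −0.18 in the group fit (adjusted p = 0.0813, edgeR), but fell with the offset (−0.32, adjusted p = 0.00137). On the nuclear side, the basket protein NUP153 had 89.1, 89.2 and 96.9 CPM in shFITM2, against 141, 136 and 131 CPM in shCTRL, without overlap, and a log2 fold change of −0.57 (SE 0.0705, edgeR adjusted p = 0.000132) in the group fit and −0.38 (SE 0.0509, adjusted p = 5.29e-05) after the offset. NUP98, whose precursor also yields a Y complex subunit, had 256, 256 and 263 CPM in shFITM2, against 314, 306 and 316 CPM in shCTRL, all shFITM2 values below all shCTRL values, and −0.27 (SE 0.0591, edgeR adjusted p = 0.00299) in the group fit and −0.26 (SE 0.0425, adjusted p = 0.000348) after the offset. It overlaps PGAP2 on the opposite strand, which has 16.4% as many reads. NUP50, a basket protein that helps release importin cargo, had −0.28 and −0.036 and fell in the group fit alone. The membrane-spanning NUP210 had 222, 222 and 224 CPM in shFITM2, against 218, 203 and 249 CPM in shCTRL, with overlap, and its log2 fold change was −0.0042 in the group fit (adjusted p = 0.972, edgeR) and −0.46 (SE 0.0449, adjusted p = 2.97e-06) with the offset. Its transcript has 58.3% GC. NUP62CL, a relative of NUP62 encoded on the X chromosome, was not called in either fit (−0.30 and 0.074), at 24.3, 25.8 and 27.7 CPM in shFITM2, against 28.7, 39.3 and 27.6 CPM in shCTRL, with overlapping groups.

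**Figure D2:**
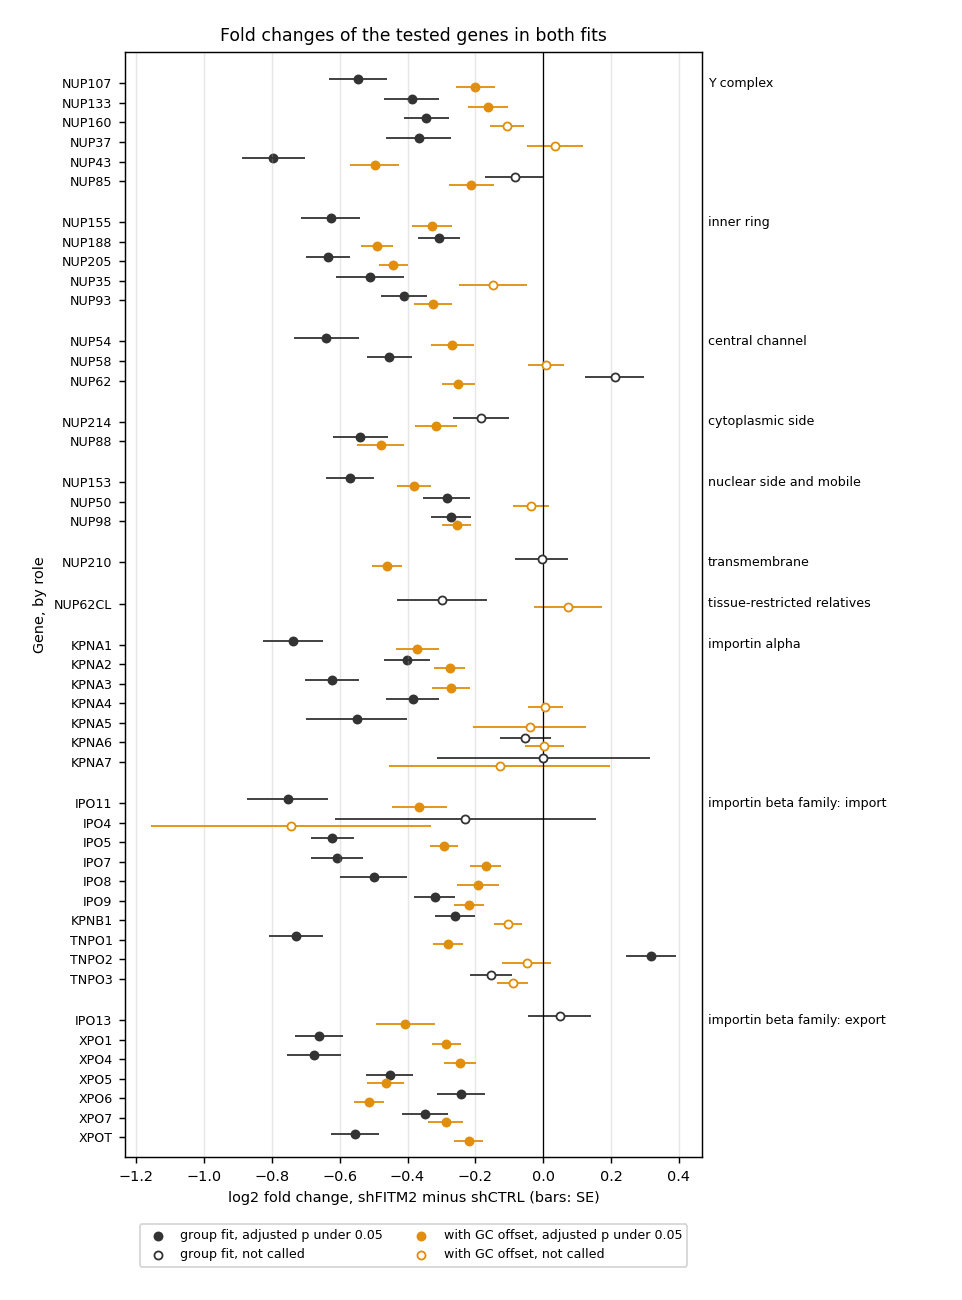
Log2 fold change, shFITM2 minus shCTRL, of the 45 tested genes by role, with standard errors, from the group fit (black) and with the GC offset (orange); filled points passed the test. Most points lie left of 0 in both fits, the group fit reaching −0.80 for NUP43, and TNPO2 at 0.32 is the sole filled point on the right.

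Of the 7 importin alpha genes, 5 fell in the group fit and 3 with the GC offset, KPNA1, KPNA2 and KPNA3, all of which fell in both. KPNA1 had 47.8, 52.3 and 52.7 CPM in shFITM2, against 91.4, 87.6 and 75.7 CPM in shCTRL, without overlap, and a log2 fold change of −0.74 (SE 0.0885, edgeR adjusted p = 0.000110) in the group fit and −0.37 (SE 0.0622, adjusted p = 0.000368) after the offset. KPNA3 had 82.3, 93.4 and 95.6 CPM in shFITM2, against 136, 148 and 134 CPM in shCTRL, without overlap, and −0.62 (SE 0.0791, edgeR adjusted p = 0.000148) in the group fit and −0.27 (SE 0.0557, adjusted p = 0.00177) after the offset. KPNA2, the importin alpha of dividing cells, had 417, 427 and 448 CPM in shFITM2, against 591, 590.4 and 526 CPM in shCTRL. Its groups did not overlap, and its log2 fold change was −0.40 and −0.28 (adjusted p = 0.000653 and 0.000343, edgeR). KPNA4, the near relative of KPNA3, had −0.38 and 0.0062 and fell in the group fit alone (adjusted p = 0.00194 and 0.946), as did KPNA5 (−0.55 and −0.040), which is low at 123 to 214 reads per library. KPNA6 (−0.053 and 0.0024) and the scarcely expressed KPNA7 (6.2e-05 and −0.13, 19 to 32 reads) were not called in either fit.

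KPNA2 made up most of the importin alpha mRNA in both groups. Of the summed CPM per kb of the 7 genes, its share was 72.7% ± 0.315 in shFITM2 and 72.0% ± 0.427 in shCTRL (SD, n = 3 each), within overlapping ranges. KPNA6 made up 6.92% ± 0.173 in shFITM2 and 5.38% ± 0.165 in shCTRL (SD, n = 3 each), with every shFITM2 library above every shCTRL library. The same held for the scarcely expressed KPNA7, at 0.427% ± 0.0681 in shFITM2 and 0.318% ± 0.0535 in shCTRL (SD, n = 3 each). KPNA3 made up 10.7% ± 0.526 in shFITM2 and 12.4% ± 0.619 in shCTRL (SD, n = 3 each) and KPNA1 3.19% ± 0.0928 in shFITM2 and 3.98% ± 0.167 in shCTRL (SD, n = 3 each), with every shFITM2 library below every shCTRL library for both. These shares are not corrected for GC content, which is 47.5% for KPNA6, 40.3% for KPNA3 and 39.9% for KPNA1, and they were not tested.

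Among the 10 import receptors of the importin beta family, 7 fell and TNPO2 rose in the group fit, and 6 fell with the GC offset, all 6 among the 7. IPO5, which imports histones and ribosomal proteins (ENSG00000065150, chromosome 13, 97953658 to 98024297, plus strand), had 519, 529.6 and 525 CPM in shFITM2, against 809, 855 and 758 CPM in shCTRL. Every shFITM2 library lay below every shCTRL library, and its log2 fold change was −0.62 (SE 0.0632, edgeR adjusted p = 5.50e-05) in the group fit and −0.29 (SE 0.0417, adjusted p = 8.94e-05) after the offset. IPO7, an importin with similar cargo, had −0.61 and −0.17, and its relative IPO8 had −0.50 and −0.19. Both fell in both fits, but with the offset the IPO7 call was lost without shCTRL replicate 1 or shFITM2 replicate 3 (adjusted p up to 0.0712, edgeR), and that of IPO8 held only without shCTRL replicate 3. IPO9 had −0.32 and −0.22 and IPO11 −0.75 and −0.37, and fell in both fits. IPO11 overlaps KIF2A on the same strand over 428 exonic bases, and KIF2A has 124% as many reads. KPNB1, importin beta 1 itself, had 424, 423 and 436 CPM in shFITM2, against 529, 514 and 494 CPM in shCTRL, without overlap. It fell by the group fit, at −0.26 (SE 0.0593, edgeR adjusted p = 0.00388), and was not called after the offset (−0.11, adjusted p = 0.0686). IPO4 was not called in either fit (−0.23 and −0.74).

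TNPO1 and TNPO2, transportins that import RNA-binding proteins, had opposite signs in the group fit. TNPO1 had 178, 183 and 187 CPM in shFITM2, against 307, 332 and 269 CPM in shCTRL, without overlap, and fell in both fits, with a log2 fold change of −0.73 (SE 0.0800, edgeR adjusted p = 7.25e-05) in the group fit and −0.28 (SE 0.0437, adjusted p = 0.000194) after the offset. TNPO2, its close paralogue (ENSG00000105576, chromosome 19, 12699194 to 12724011, minus strand), had 73.4, 72.9 and 68.5 CPM in shFITM2, against 57.5, 59.6 and 55.3 CPM in shCTRL. Here every shFITM2 library lay above every shCTRL library, and the log2 fold change was 0.32 (SE 0.0742, edgeR adjusted p = 0.00445) in the group fit and −0.049 (SE 0.0716, adjusted p = 0.661) with the offset, so that the rise was lost and its sign turned. The transcripts have 37.2% GC for TNPO1 and 56.2% for TNPO2. TNPO3, which imports splicing factors of the SR family, had −0.15 and −0.090, neither of them past the test, although every shFITM2 library lay below every shCTRL library. The TNPO1 and TNPO2 promoter windows are shown as the pair of paralogues with opposite signs in the group fit. Capitals mark the GC box in each (on the reverse strand in TNPO1) and CCAAT in TNPO1, and no other of the 7 motifs was in either window.
TNPO1 promoter, chr5:72816411-72816710, plus strand: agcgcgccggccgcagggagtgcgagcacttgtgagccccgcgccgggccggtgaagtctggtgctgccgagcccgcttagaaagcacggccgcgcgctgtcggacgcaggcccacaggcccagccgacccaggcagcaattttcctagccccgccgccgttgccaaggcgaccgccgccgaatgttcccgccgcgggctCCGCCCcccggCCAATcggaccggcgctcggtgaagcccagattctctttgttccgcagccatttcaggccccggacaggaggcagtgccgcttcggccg
TNPO2 promoter, chr19:12722210-12722509, minus strand: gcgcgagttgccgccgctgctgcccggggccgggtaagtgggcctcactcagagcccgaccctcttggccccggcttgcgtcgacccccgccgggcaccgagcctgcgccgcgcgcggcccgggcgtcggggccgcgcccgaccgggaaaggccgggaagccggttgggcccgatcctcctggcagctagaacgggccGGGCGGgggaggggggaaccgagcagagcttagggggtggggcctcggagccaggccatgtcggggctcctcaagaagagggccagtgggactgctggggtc

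All 6 XPO genes, the exportins, fell in both fits, and IPO13, a carrier working in both directions, fell with the offset alone. XPO1, the main exportin for leucine-rich nuclear export signals (ENSG00000082898, chromosome 2, 61477849 to 61538626, minus strand), had 356, 370.2 and 397 CPM in shFITM2, against 589, 634 and 554 CPM in shCTRL. Every shFITM2 library lay below every shCTRL library, and its log2 fold change was −0.66 (SE 0.0712, edgeR adjusted p = 6.73e-05) in the group fit and −0.29 (SE 0.0427, adjusted p = 0.000136) after the offset. XPO4 had 114, 116 and 119.6 CPM in shFITM2, against 191, 201 and 167 CPM in shCTRL, without overlap, and −0.68 (SE 0.0789, edgeR adjusted p = 9.55e-05) in the group fit and −0.25 (SE 0.0463, adjusted p = 0.000957) after the offset. XPOT, the exportin of transfer RNAs, had −0.55 and −0.22, XPO7 −0.35 and −0.29 and XPO5, the exportin of microRNA precursors, −0.45 and −0.46. XPO5 overlaps POLR1C on the opposite strand, which has 22.2% as many reads. XPO6, which exports actin with profilin, had −0.24 and −0.51, larger with the offset, and its group-fit call (adjusted p = 0.0134, edgeR) was lost without shFITM2 replicate 2 or shFITM2 replicate 3 (adjusted p up to 0.0649). IPO13 had 0.048 in the group fit (adjusted p = 0.688) and −0.41 with the offset (adjusted p = 0.00227). The XPO1 promoter window is shown for the XPO gene with the smallest p in the group fit. It holds 1 E-box, in capitals, and none of the other 6 motifs.
XPO1 promoter, chr2:61537038-61537337, minus strand: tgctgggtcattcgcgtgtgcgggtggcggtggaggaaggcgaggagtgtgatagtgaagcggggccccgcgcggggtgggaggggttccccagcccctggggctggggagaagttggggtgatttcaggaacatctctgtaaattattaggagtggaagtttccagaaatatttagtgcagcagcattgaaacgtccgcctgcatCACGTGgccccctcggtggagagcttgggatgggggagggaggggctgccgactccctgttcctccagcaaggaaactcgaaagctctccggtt

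Of the summed CPM per kb of the 6 XPO genes, XPO1 made up 24.9% ± 0.969 in shFITM2 and 27.8% ± 0.891 in shCTRL (SD, n = 3 each), with shFITM2 below shCTRL in every library. XPO6 made up 18.9% ± 0.945 in shFITM2 and 15.8% ± 1.64 in shCTRL (SD, n = 3 each), with every shFITM2 library above every shCTRL library. XPO6 transcripts have 54.4% GC and XPO1 transcripts 39.6%, and these shares too are without GC correction and were not tested.

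The members' fold changes followed transcript GC content as those of all genes did. Across the 45 tested members, which are not independent replicates and share the same libraries, the Spearman correlation of log2 fold change with GC content was 0.746 in the group fit and −0.400 with the offset. Members had a median GC content of 43.7%, and all tested genes 48.7%. Read by ranges of GC content chosen after seeing the data, 19 of 20 members under 42% GC fell in the group fit, where 61.3% of the genes in that range did. From 42% to 48% it was 11 of 13 members and 33.4% of genes, from 48% to 54% 3 of 6 and 9.17%, and at 54% or more 1 of 6 and 0.868%. With the offset, 14 of 20, 8 of 13, 5 of 6 and 4 of 6 members fell in these ranges, from low to high GC, where 16.4%, 17.1%, 17.2% and 18.4% of genes did. The members' median log2 fold change with the offset was −0.23, −0.22, −0.29 and −0.43 in the same order, and that of all genes −0.030, −0.021, −0.027 and −0.029. The 8 members that fell in the group fit alone (NUP160, NUP37, NUP58, NUP35, NUP50, KPNA4, KPNA5 and KPNB1) have 34.4% to 45.3% GC, and the 5 that fell with the offset alone (NUP85, NUP62, NUP214, NUP210 and IPO13) 51.4% to 58.4%.

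**Figure D3:**
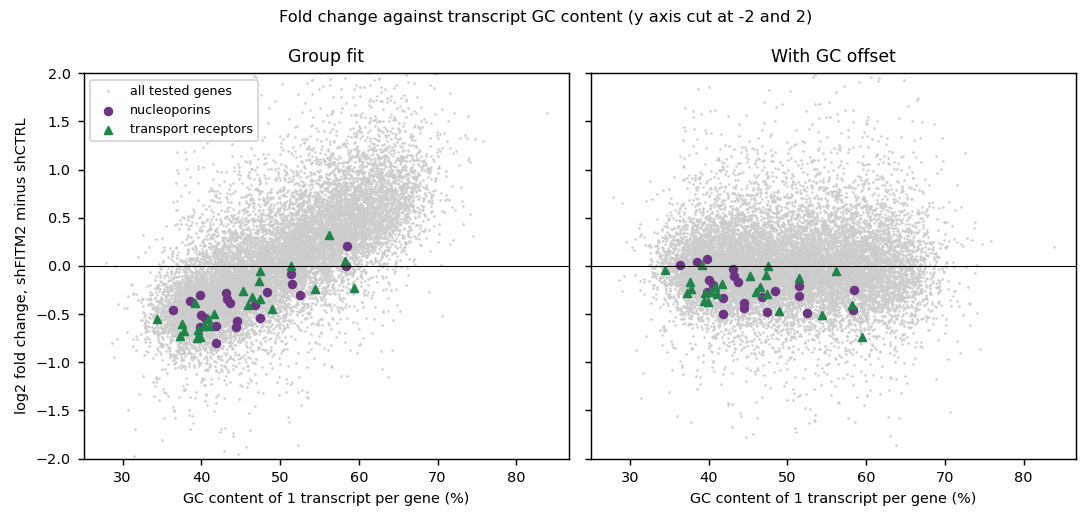
Log2 fold change, shFITM2 minus shCTRL, against the GC content of 1 transcript per gene, without (left) and with (right) the GC offset; grey points are all tested genes, coloured points the 21 tested nucleoporins and 24 transport receptors. On the left the grey cloud rises with GC content (Spearman correlation 0.744) and the members rise with it, and on the right the cloud is flat and 40 of 45 members lie below 0.

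Pore proteins with other names showed falls and rises. Of 10, 4 fell and 1 rose in the group fit, and 5 fell and 1 rose with the GC offset, with medians of −0.18 and −0.17. SEH1L, a Y complex subunit, had −0.74 and −0.32, AHCTF1 (ELYS), which seeds new pores on chromatin, −0.60 and −0.25, and the membrane nucleoporin NDC1 −0.83 and −0.48, and these 3 fell in both fits. RANBP2, the large protein of the cytoplasmic filaments, had −0.54 and −0.15 and fell in the group fit alone (adjusted p = 0.000161 and 0.0587, edgeR). AAAS (0.44 and 0.040) rose in the group fit alone. The basket protein TPR (−0.19 and 0.17, adjusted p = 0.0641 and 0.0320, edgeR) turned its sign and rose with the offset alone. No gene of this list was called higher with the offset in 4 of the 6 fits that leave out 1 library. With the offset alone POM121C (0.075 and −0.31, adjusted p = 0.590 and 0.00250, edgeR) and RAE1 (−0.16 and −0.19, adjusted p = 0.0639 and 0.0140) fell, the sign of POM121C having turned. POM121 and POM121C are near-identical copies whose reads may be split.

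In the list of the RAN cycle and other carriers, 5 of 12 tested genes fell and 2 rose, and 2 fell and 1 rose with the GC offset, with medians of 0.039 and −0.027. CSE1L, the exportin that returns importin alpha to the cytoplasm, had 445, 488 and 497 CPM in shFITM2, against 874, 943 and 761 CPM in shCTRL, without overlap, and a log2 fold change of −0.85 (SE 0.0825, edgeR adjusted p = 4.64e-05) in the group fit and −0.46 (SE 0.0458, adjusted p = 3.67e-06) after the offset. RAN, the GTPase that sets the direction of transport, had 550.3, 581 and 566 CPM in shFITM2, against 786, 760.2 and 755 CPM in shCTRL, without overlap, and −0.44 (SE 0.0581, edgeR adjusted p = 0.000179) in the group fit and −0.19 (SE 0.0451, adjusted p = 0.00465) after the offset. RANGAP1, its cytoplasmic activator, rose in the group fit (0.37, adjusted p = 0.000997, edgeR) and was not called with the offset (−0.014), and NMD3, the adaptor for export of large ribosomal subunits, fell in the group fit alone (−0.44 and −0.039). The other gene that rose in the group fit was RCC1 (0.20 and 0.086, adjusted p = 0.0254 and 0.206, edgeR), the nucleotide exchange factor of RAN. It was not called with the offset, and it overlaps SNHG3 on the same strand. With the offset the gene that rose was PHAX (0.084 and 0.30, adjusted p = 0.422 and 0.00597, edgeR), the adaptor for export of small nuclear RNAs, which was not called in the group fit.

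The mRNA export list had 8 of 25 tested genes lower and 4 higher in the group fit, and 9 lower and 2 higher with the GC offset, with medians of −0.049 and −0.10. FYTTD1, an export adaptor, had −0.82 and −0.46, PCID2, of the TREX-2 complex, −0.52 and −0.61, and NCBP1, the large cap-binding subunit, −0.76 and −0.45. These 3 fell in both fits, and THOC1, of the THO complex, in the group fit alone (−0.56 and −0.17). Of the genes that rose, ENY2 (0.51 and 0.91), of TREX-2, did so in both fits, CHTOP (0.13 and 0.41) with the offset alone, and SEM1 (0.93 and 1.32, adjusted p = 0.0199 and 0.0533, edgeR), POLDIP3 (0.45 and 0.16) and ALYREF (0.50 and 0.088) in the group fit alone. PCID2 and THOC1 overlap CUL4A and USP14 on the opposite strand, which hold more reads than they do, and FYTTD1 overlaps RUBCN. ENY2 and ALYREF overlap NUDCD1 and ANAPC11 on the opposite strand, which have 127% and 82.3% as many reads. In the nuclear lamina and envelope list 6 of 18 fell and 5 rose in the group fit, and 5 fell and 3 rose with the offset, with medians of −0.0032 and −0.011. SUN2 (0.81 and 0.23), of the bridge to the cytoskeleton, and BANF1 (0.57 and 0.26), which binds DNA at the envelope, rose in both fits, while TMPO (−0.66 and −0.35), which makes a lamina-associated protein, and the lamin B receptor gene LBR (−0.61 and −0.18) fell in both. LMNA, the lamin A/C gene, turned its sign with a call on each side, at 0.47 in the group fit (adjusted p = 0.000869, edgeR) and −0.13 with the offset (adjusted p = 0.0313). SUN2 and BANF1 overlap GTPBP1 and EIF1AD on the opposite strand. These counts stand beside 24.5% of all tested genes lower and 24.2% higher in the group fit, and 17.4% lower and 11.8% higher with the offset, and the shares of the RAN, mRNA export and lamina lists are not read as a result about those lists. The difference between any of these lists and the members was not tested.

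**Figure D4:**
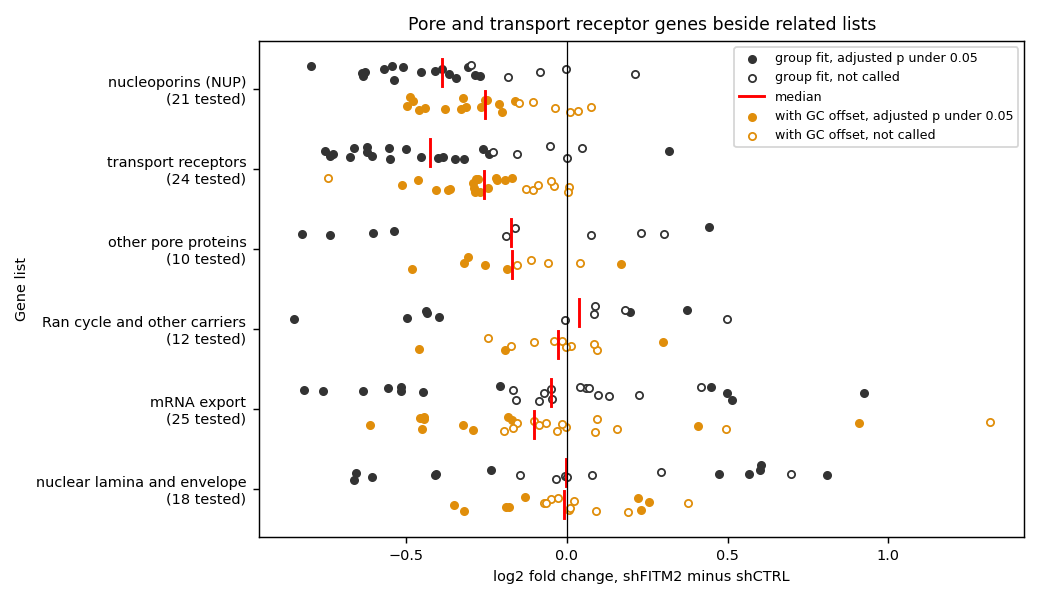
Log2 fold change, shFITM2 minus shCTRL, of each tested gene in 6 lists, from the group fit (black) and with the GC offset (orange), with filled points past the test and red bars at medians. In the group fit the medians of nucleoporins and of transport receptors lie at −0.39 and −0.43, and those of the mRNA export and lamina lists within 0.05 of 0. With the GC offset these medians lie at −0.26, −0.26, −0.10 and −0.011, in the same order.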

How the data were processed

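RNA of 6 HT29 libraries was extracted with Trizol and prepared with a directional NEBNext Ultra kit, per the labels' protocols. The authors deposited 1 table of raw read counts per gene. The tools in the submitters' processing notes, with no role stated, are featureCounts 1.5.0-p3, HISAT2 2.0.5, DESeq2 1.16.1 and StringTie 1.3.3b, and the build is hg19, but all 46 members have the GRCh38 position and strand of GENCODE release 29. How strand and multi-mapping reads were treated is not given in these sources. Gene lengths are those of the table. No column of per-sample values was left unused.

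Groups and replicate numbers came from the titles. Counts were fitted across all genes with edgeR 4.0.16 (R 4.3.3): TMM, an expression filter (minimum count 10, minimum total 15), robust quasi-likelihood F-test with group as the sole term, and p-values adjusted by Benjamini-Hochberg across the whole table, with calls at an adjusted p under 0.05. For the GC offset, every library's departure from the mean log2 level was smoothed against transcript GC (spline, 6 degrees of freedom, 1 GENCODE transcript per gene, coding ones preferred and then the longest), and the curve was entered per gene and library for the 98.8% of genes with a value. The longest transcript need not be the one expressed. Both fits were tested on simulated counts. Those counts carried no GC trend, so how well the offset removes such a trend was not tested. No pair of replicates agreed within counting noise (chi-square per gene of 2.32 or more), so none was treated as 1 library deposited again. This does not show that they are separate cultures. Alternatives were other normalizations, filters and tests (DESeq2 1.42.0, limma-voom 3.58.1), a stricter threshold, the replicate block, length in the offset, and each library left out.

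Members and lists were chosen with earlier results of these data known. Values in every library are given for the pair of members of each role with the smallest p, for NUP62, NUP62CL, KPNA2, TNPO2 and for KPNB1, RAN and XPO1, and up to 4 genes of each related list are named by smallest p. NUP62, KPNA2 and TNPO2, the library values of CSE1L, and AAAS, TPR, RAE1, RCC1, PHAX, ENY2, CHTOP, SEM1, POLDIP3, ALYREF, LMNA, POM121 and POM121C, were added after their values were seen, as were the ranges of GC content and the promoter motifs. Genes given as lost without a library are so for the fits that leave out 1 library each.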

Additional observations from a re-analysis of the deposited data

How the results depend on the processing

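Of the members, 29 to 38 were called under all alternatives of the group fit tried, against 35 as reported, and 26 to 33 under those of the GC offset, against 31. Without 1 library the calls were 34 to 38 and, with the offset, 26 to 33, and 34 of 35 and 26 of 31 called members were called in all 6 such fits. FITM2 was called in all alternatives run. The replicate numbers gave no sign of pairing (correlations of same-numbered deviations −0.0412, −0.00656 and −0.0653), which so few libraries cannot exclude. With the replicate block 35 members were called, and 30 with the GC offset and block.

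With the GC offset, GC and length offset, and GC offset and replicate block, in that order, all genes called were 4274, 4224 and 4182 (against 7205), those higher 1732, 1774 and 1716 (against 3583), and members higher 0, 0 and 0 (against 1). In the same order the RAN list had 2, 2 and 2 lower and 1, 1 and 1 higher, the mRNA export list 2, 3 and 2 higher and the lamina list 3, 3 and 3 higher. Signs turned there for these log2 fold changes: NUP37 0.036, 0.044 and 0.034; NUP58 0.0088, 0.027 and 0.011; NUP62 −0.25, −0.23 and −0.25; KPNA4 0.0062, 0.014 and 0.0068; KPNA6 0.0024, 0.017 and 0.0045; KPNA7 −0.13, −0.14 and −0.13; IPO13 −0.41, −0.38 and −0.41; TNPO2 −0.049, −0.027 and −0.046; NUP62CL 0.074, 0.066 and 0.082. With no filter on low counts 2 members, 3 other pore genes and 4 RAN list genes were higher. At an adjusted p under 0.01 the group fit called 2362 genes higher, 1 in the RAN list and 2 in the mRNA export list, and the offset 2573 genes, 986 higher and 1587 lower, with 0 other pore genes higher, 5 mRNA export genes lower and 2 lamina genes lower. KPNA7 was −0.0058 with library totals and −0.0018 with limma-voom. NUP210 was 0.00024 with DESeq2 size factors, 0.0065 with no filter, 0.00027 with the DESeq2 test, 0.0019 with limma-voom and 0.00092 with the replicate block.

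Without 1 library, counts higher were 1 to 2 for members, 1 to 4 for other pore genes, 1 to 5 for the RAN list and 2 to 5 for mRNA export, and log2 fold changes −0.17 to 0.17 for KPNA7, −0.0045 to 0.082 for IPO13 and −0.074 to 0.074 for NUP210. With the offset and without 1 library, all genes called were 2806 to 5620 and those higher 1110 to 2334. Higher genes were 0 to 1 for other pore genes, 1 to 2 for the RAN list, 2 to 5 for mRNA export and 1 to 5 for the lamina list, whose lower genes were 2 to 5. Log2 fold changes were −0.022 to 0.089 for NUP37, −0.024 to 0.064 for NUP58, −0.013 to 0.040 for KPNA4, −0.15 to 0.17 for KPNA5, −0.048 to 0.052 for KPNA6, −0.30 to 0.041 for KPNA7, −0.13 to 0.016 for TNPO2, −0.0060 to 0.20 for NUP62CL. The cause was not tested in any of these. Counts of 11 to 19 reads for IPO4 and 19 to 32 for KPNA7 limit what can be seen for them.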

Other observations

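Among genes with names of the same kind that the table does not call protein-coding, 2 passed the filter. NUP50-DT, a non-coding transcript diverging from NUP50, averaged 4.83 ± 0.781 CPM in the shFITM2 libraries, against 3.59 ± 0.708 CPM in the shCTRL libraries (SD, n = 3 each), with overlapping groups. Its log2 fold change was 0.43 (SE 0.210, edgeR adjusted p = 0.112) in the group fit and 0.43 (SE 0.205, adjusted p = 0.135) after the offset, and it was called in neither fit. XPOTP1, a pseudogene of XPOT, averaged 1.24 ± 0.187 CPM in the shFITM2 libraries, against 2.23 ± 0.860 CPM in the shCTRL libraries (SD, n = 3 each). Its log2 fold change was −0.85 (SE 0.343, edgeR adjusted p = 0.0575) in the group fit and −0.49 (SE 0.324, adjusted p = 0.286) after the offset, likewise with no call, and reads could be shared between it and XPOT.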
